A study of Mus musculus with 8 samples.

Results

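Genes that make glutathione, couple it to other molecules or spend it on peroxides were followed in the whole brain of methanol-treated mice. They were chosen by gene symbol, with earlier results of these data known. Members were every probe on the array whose annotated symbol belonged to the glutathione S-transferases (Gsta, Gstm, Gstp, Gstt, Gsto, Gstz, Gstk), the microsomal transferases (Mgst), the glutathione peroxidases (Gpx), the gamma-glutamyl transferases (Ggt) or the enzymes Gclc, Gclm, Gss and Gsr. This gave 56 probes for 38 genes among 25697 probes on the array, of which the named ones stood for 16593 genes. Of the 56 probes, 32 probes for 26 genes were detected on at least 4 of the 8 arrays and were compared between the groups, as were 11938 probes in all. No probe named here carried Gsr, Ggt1, Ggta1 or Gstm7, which were not analysed here.

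Brain RNA was hybridised to 8 Illumina MouseRef-8 BeadChip arrays, on which labelled RNA binds to bead-borne oligonucleotide probes. The methanol group was 4 arrays of mice that, by the sample labels, had 120 mg/kg methanol in a volume of 350 µl, and the saline group was 4 arrays of mice that had 350 µl of normal saline, with the tissue taken at 2 h in both. The labels name male mice and no strain, age or route, and they do not say whether an array held RNA of 1 mouse. The methods of the study describe male BALB/c mice, inhalation of methanol or water vapors for a shorter time and groups of another size, so that dose, route and control solution are not settled for these arrays. Most of the sex-linked genes read went against the label of male mice, so that the sex is not settled. Xist, the RNA that silences 1 X chromosome in female cells, was detected on every array, at a log2 intensity of 8.66 to 8.98 in the methanol group and 8.87 to 8.99 in the saline group, while the Y-linked genes Eif2s3y and Kdm5d were detected on none. Uty, another Y-linked gene, was dim, with detection on 3 methanol arrays and 1 saline array.

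Glutathione is a tripeptide of glutamate, cysteine and glycine, and glutamate-cysteine ligase sets the pace of its synthesis. Transferases attach it to reactive compounds, peroxidases use it to reduce hydrogen peroxide and lipid peroxides, and in the oxidation of methanol it captures formaldehyde for the enzyme encoded by Adh5. In brain the astrocytes are the main makers of glutathione and hand its building blocks to neurons, and many of its genes are targets of NRF2, a transcription factor that binds the antioxidant response element.

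Gsta3 was higher and Gpx8 was lower in the methanol brains, each at 1 probe, and the other 30 of the 32 compared probes did not pass the test. Those 30 include the other compared probes of Gpx8, and the other Gsta3 probe was not detected. Gsta3 encodes an alpha class transferase that in mouse liver detoxifies aflatoxin epoxide, and Gpx8 a peroxidase of the endoplasmic reticulum membrane. The share of probes past the test was 6.25% (1 higher, 1 lower), against 5.60% of all 11938 probes, of which 3.12% were higher and 2.49% lower. A further look at unadjusted values gave 8 of 32 probes with an unadjusted p under 0.05 from limma, where 20.7% of all probes had one. The methanol and saline values of 3 of the 32 probes (Gsta3, Gpx8 and Gsto1) did not overlap, against 12.4% of all probes. These shares of the glutathione probes are near those of the whole array. Most changes were small: 20 of 32 probes moved by less than 0.2 on the log2 scale, and for 17 of 32 the 95% interval of the change lay within 0.5 on either side of 0. The median log2 change was -0.10, against -0.0021 over all probes, with 23 of 32 values below 0 (71.9%, against 50.5% of all probes).

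**Figure D1:**
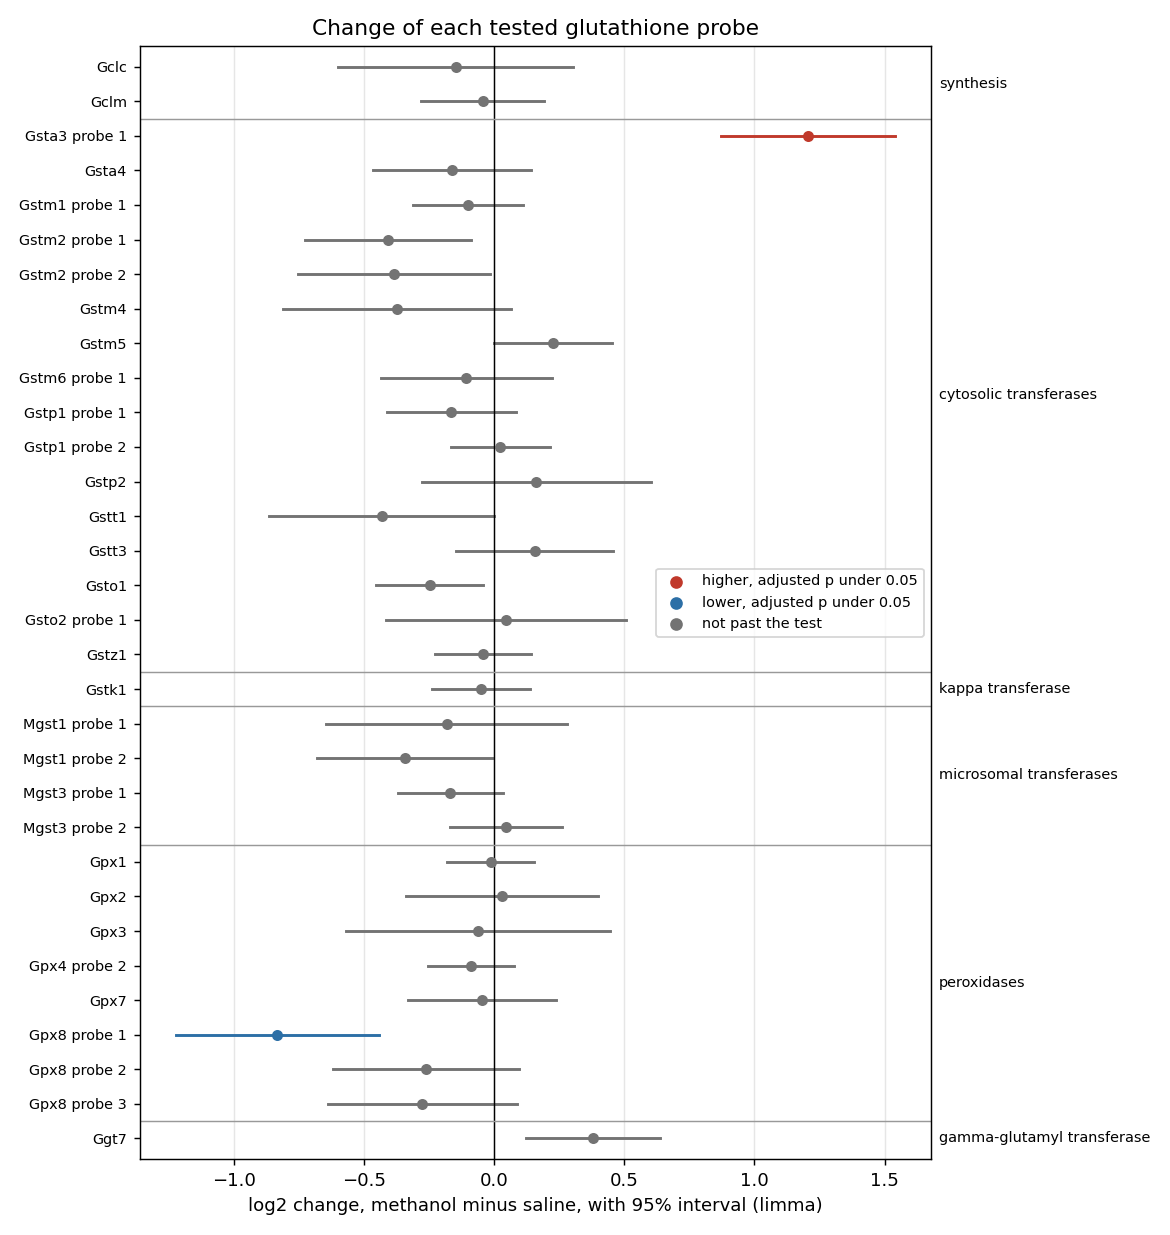
Log2 change (methanol minus saline, horizontal axis, with the 95% interval from limma as a line) of each of the 32 compared glutathione probes, ordered by role down the page. The Gsta3 point at 1.20 and the Gpx8 probe 1 point at -0.83 are the ones past an adjusted p under 0.05, and the other 30 lie between -0.43 and 0.38.

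The first step of glutathione synthesis showed no change past the test. Gclm, the modifier subunit of glutamate-cysteine ligase, had log2 intensities of 7.33, 7.14, 6.97 and 7.34 on the methanol arrays and 7.33, 7.17, 7.25 and 7.21 on the saline arrays. The saline values lay within the range of the methanol values, with a change of -0.05 (SE 0.11, 95% interval -0.28 to 0.19, adjusted p = 0.870 from limma). Gclc, the catalytic subunit, was dim and was detected on 2 of 4 methanol arrays and 3 of 4 saline arrays. Its values were 5.72, 5.55, 5.11 and 5.50 in the methanol group and 5.51, 5.88, 5.07 and 6.01 in the saline group, a change of -0.15 (SE 0.21, 95% interval -0.60 to 0.30, adjusted p = 0.749 from limma). The 3 probes of Gss, the synthetase that adds glycine, were detected on 0 of 8 arrays, so that the second step was not measured.

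Gsta3 was the transferase gene that changed past the test. Its probe 1 was detected on 4 of 4 methanol arrays, at log2 intensities of 6.04, 6.52, 6.60 and 6.38, and on 0 of 4 saline arrays, at 5.30, 5.25, 5.03 and 5.14. The groups did not overlap, and the gap between them exceeded the spread of the arrays inside each group. The fitted change was 1.20 (SE 0.16, 95% interval 0.87 to 1.54, adjusted p = 0.00031 from limma). Since no saline array detected the probe, the methanol mean was also set against the mean lowest detected signal of the saline arrays. It lay 0.97 above that signal on the log2 scale (1.96-fold) under the reported setting. This distance is not a lower bound of the change, since the 95% interval began at 0.87 and other settings gave smaller changes. The deposited intensities, which hold the background, were 224.3, 252.6, 237.3 and 214.8 on the methanol arrays and 175.4, 193.7, 170.4 and 177.5 on the saline arrays. The log2 change was 0.75 with a background offset of 50 and 0.37 without background correction, both past the test, so its size is uncertain. A probe that enters the comparison only through the methanol arrays could hardly do so without a difference, and Gsta3 probe 1 is such a probe. The other Gsta3 probe was detected on 0 of 8 arrays, as were the probes of its relatives Gsta1 and Gsta2, so that the change rests on 1 probe. Gsta4, the alpha class transferase of hydroxynonenal, a product of lipid peroxidation, had a change of -0.16 (SE 0.14, adjusted p = 0.567 from limma). In bulk tissue, more RNA in each cell that makes it and more such cells cannot be told apart.

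**Figure D2:**
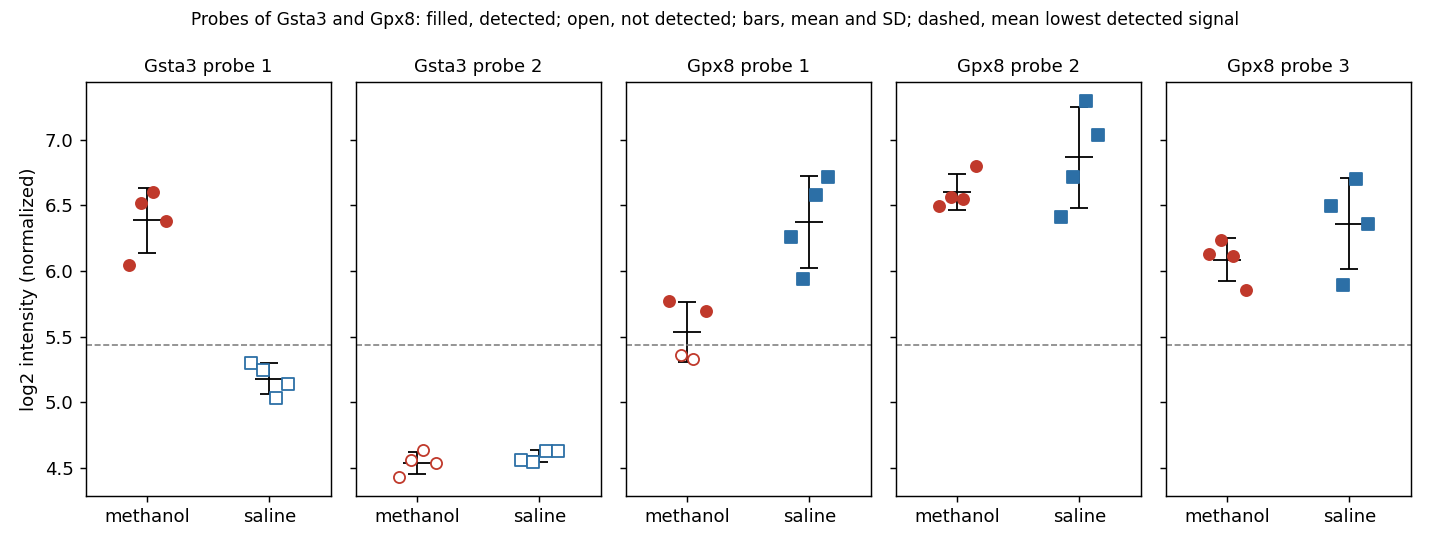
Log2 intensity (vertical axis, after background correction and quantile normalization) of each Gsta3 and Gpx8 probe on the 4 methanol arrays (circles, left) and 4 saline arrays (squares, right), filled where the probe was detected, with the mean and SD as bars and the mean lowest detected signal as a dashed line. Gsta3 probe 1 lies above the line on every methanol array and below it on every saline array, and the saline arrays of Gpx8 spread up to 7.29 on probe 2.

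The start of Gsta3 holds 1 match to the core of the antioxidant response element, TGACNNNGC, where N is any base, searched on both strands (GCNNNGTCA on the reverse) in the 300 bases from 250 before to 50 after the RefSeq transcript start. Of 38 glutathione genes, 34 had such a window in the RefSeq table (GRCm38.p6), and 4 of these held a match, namely Gclm, Gsta3, Gstm5 and Mgst1. Over all 27025 genes of the table, 14% held one. By window, it was 4 of 45 among the glutathione genes and 12.4% of all 32851. The matches are shown since they fall in 1 gene past the test and in 3 that are not, with the matched letters in capitals. They are at chr1:21240389-21240547 (Gsta3, match 121 bases before the start), chr3:122245407-122245447 (Gclm, 134 before, matched on the reverse strand), chr3:107895796-107895836 (Gstm5, 42 before) and chr6:138140455-138140495 (Mgst1, 56 before, matched on the reverse strand), all printed as the plus strand, on which these genes lie.
Gsta3: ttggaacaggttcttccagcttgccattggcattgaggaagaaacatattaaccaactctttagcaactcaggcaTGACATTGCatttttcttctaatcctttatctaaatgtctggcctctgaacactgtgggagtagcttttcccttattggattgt
Gclm: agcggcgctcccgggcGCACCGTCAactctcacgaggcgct
Gstm5: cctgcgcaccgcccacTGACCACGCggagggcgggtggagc
Mgst1: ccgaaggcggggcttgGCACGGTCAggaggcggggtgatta
A match says only that these letters stand in the window. The log2 changes of these genes ran from -0.34 (Mgst1 probe 2) over -0.05 (Gclm) and 0.22 (Gstm5) to 1.20 (Gsta3 probe 1).

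The mu class, whose main brain genes Gstm1 and Gstm5 conjugate electrophiles, had 10 probes on the array, of which 6 were compared and 0 passed the test. Their changes ran from -0.41 to 0.22, with a median of -0.24. Gstm5, with the brightest probe of all the glutathione genes, had 11.91, 11.44, 11.54 and 11.41 on the methanol arrays and 11.46, 11.22, 11.46 and 11.26 on the saline arrays. The groups overlapped, and the change was 0.22 (SE 0.11, 95% interval -0.0019 to 0.45, adjusted p = 0.246 from limma). Gstm1 had 10.26, 10.36, 10.37 and 10.53 in the methanol group and 10.26, 10.39, 10.54 and 10.72 in the saline group, a change of -0.10 (SE 0.098, 95% interval -0.31 to 0.11, adjusted p = 0.613). The 2 compared probes of Gstm2 had similar changes, -0.41 on probe 1 (SE 0.15, adjusted p = 0.134 from limma) with -0.39 on probe 2 (SE 0.17, adjusted p = 0.217), and neither passed the test. Mu class genes are close copies of each other on 1 chromosome, and how far a probe of one binds RNA of another was not tested.

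Pi, theta, omega and zeta transferases did not pass the test either, at 0 of 8 probes. Gstp1, the pi class enzyme that also binds stress kinases, had 11.16, 11.05, 11.15 and 11.44 on the methanol arrays and 11.21, 11.20, 11.04 and 11.26 on the saline arrays at its brighter probe 2. The difference there was 0.02 (SE 0.088, 95% interval -0.17 to 0.21, adjusted p = 0.921 from limma), and that of probe 1 was -0.17 (SE 0.12, adjusted p = 0.456). Gstp2, a near copy of Gstp1, had a change of 0.16 (SE 0.21, adjusted p = 0.717). Gsto1, the omega class enzyme that reduces dehydroascorbate, was at 8.17, 8.08, 8.35 and 8.32 on the methanol arrays and 8.40, 8.35, 8.56 and 8.60 on the saline arrays. The groups did not overlap, although methanol replicate 3 and saline replicate 2 were nearly equal, and the change of -0.25 (SE 0.096, 95% interval -0.46 to -0.04, adjusted p = 0.158 from limma) did not pass. Gstt1 of the theta class had 5.77, 5.74, 5.87 and 6.75 on the methanol arrays, against 6.48, 6.34, 6.33 and 6.72 on the saline arrays. Methanol replicate 4 alone overlapped the saline values. The Gstt1 change of -0.43 (SE 0.20, adjusted p = 0.242 from limma) did not pass. Without that array it was past the test (-0.69, adjusted p = 0.018 from limma). The array is singled out here for its value, so that fit is no support for a change. Gstz1, the isomerase of tyrosine breakdown, changed by -0.04 (SE 0.086), and Gstk1, the transferase of mitochondria and peroxisomes, by -0.05 (SE 0.088), both among the narrowest estimates of the family.

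**Figure D3:**
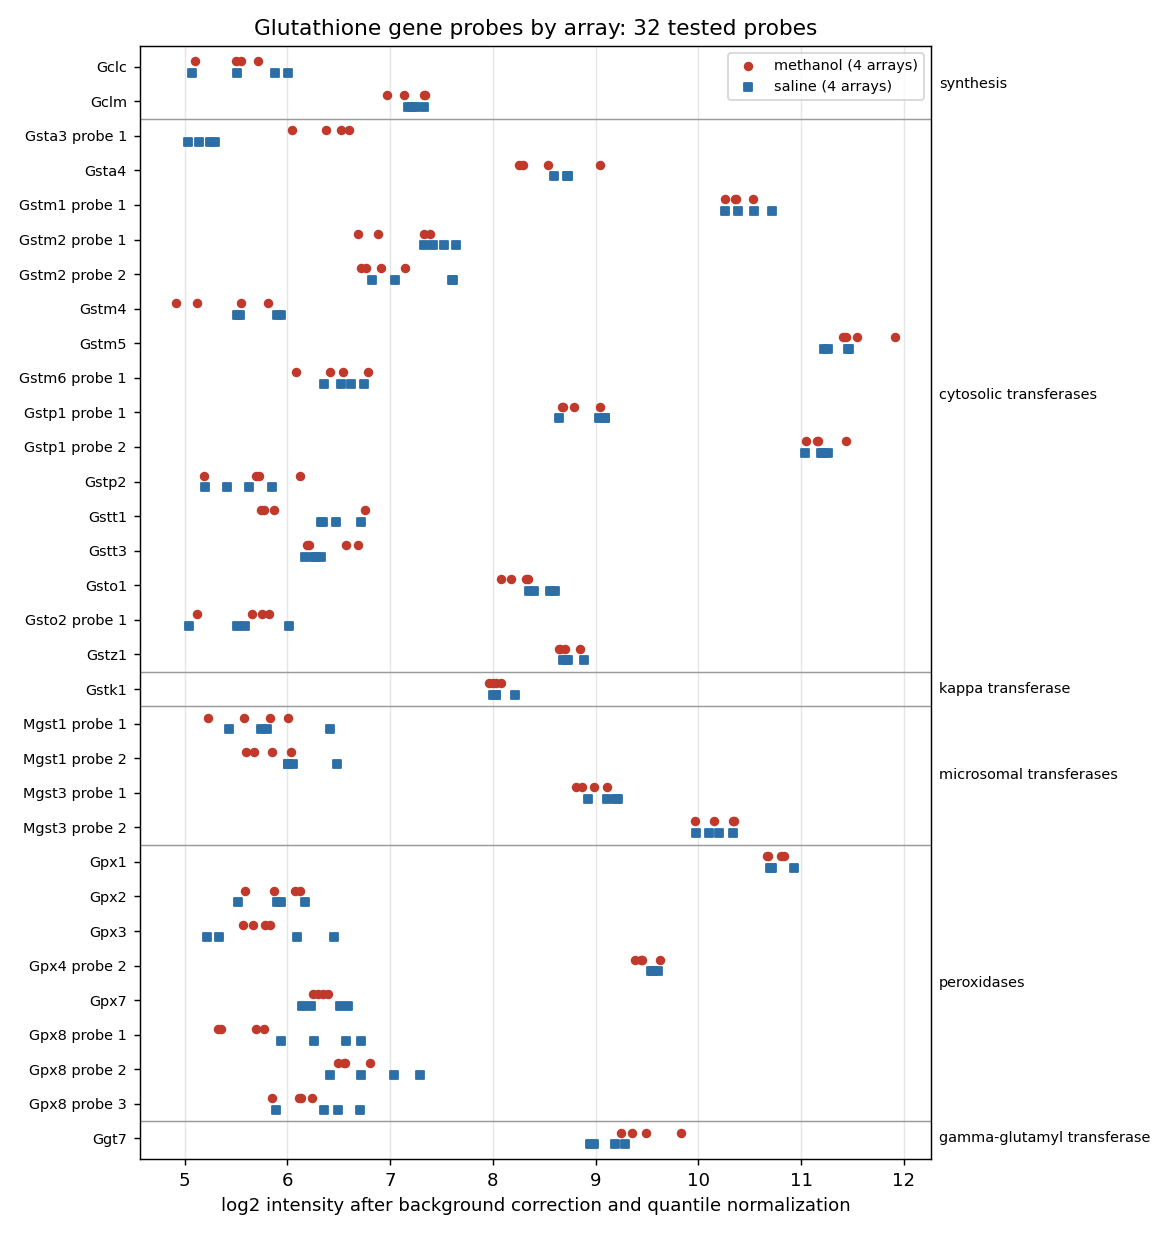
Log2 intensity (horizontal axis) of the 32 compared probes on each of the 4 methanol arrays (circles, upper of each pair) and 4 saline arrays (squares, lower), grouped by role down the page. Gsta3 probe 1 and Gpx8 probe 1 show separated groups, and for Gsto1 the groups are apart by less than the width of a symbol. Brightness depends on the probe, so levels are not comparable between probes.

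Microsomal transferases, which sit in membranes and also reduce lipid peroxides, had 4 of 5 probes compared and 0 past the test. Mgst3 had 10.33, 10.15, 9.96 and 10.34 on the methanol arrays and 10.20, 10.10, 9.98 and 10.33 on the saline arrays at probe 2, a change of 0.04 (SE 0.10, 95% interval -0.17 to 0.26, adjusted p = 0.861 from limma). Its probe 1 differed by -0.17 (SE 0.094, adjusted p = 0.336). For Mgst1 the changes were -0.18 (SE 0.22) and -0.34 (SE 0.16, adjusted p = 0.230) on 2 dim probes.

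Among the peroxidases, 8 of 12 probes were compared, 0 were higher and 1 was lower. Gpx8 probe 1 was detected on 2 of 4 methanol arrays, at 5.77, 5.36, 5.33 and 5.69, and on 4 of 4 saline arrays, at 6.26, 5.94, 6.58 and 6.72. The groups did not overlap, and the change was -0.83 (SE 0.18, 95% interval -1.23 to -0.44, adjusted p = 0.016 from limma). Its methanol mean of 5.54 lay close to the mean lowest detected signal of those arrays, 5.46, so the size is uncertain. It was -0.54 with a background offset of 50 and -0.26 without background correction, both past the test. The other 2 Gpx8 probes were detected on all 8 arrays and had the same sign with smaller values. Probe 2 had 6.50, 6.56, 6.55 and 6.80 on the methanol arrays and 6.41, 6.71, 7.29 and 7.04 on the saline arrays, a change of -0.26 (SE 0.17, adjusted p = 0.406 from limma). Probe 3 had 6.13, 6.24, 6.12 and 5.85 on the methanol arrays and 6.49, 5.89, 6.70 and 6.35 on the saline arrays, a change of -0.28 (SE 0.17, adjusted p = 0.385). On both, the groups overlapped.

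The call of Gpx8 was lost when saline replicate 3 or saline replicate 4 was left out. Lower calls over all probes also fell, from 297 to 152 without saline replicate 3 and to 160 without saline replicate 4. A lost call with fewer arrays therefore does not place the change in those arrays. The change of probe 1 was -0.76 (adjusted p = 0.062 from limma) without saline replicate 3 and -0.72 (adjusted p = 0.060) without saline replicate 4. Without both, a comparison chosen after the data were seen, it was -0.56 (adjusted p = 0.281), and that of probe 2 was 0.04. Dcn, the decorin of meningeal fibroblasts, had 7.98, 8.42, 8.99 and 8.27 on the methanol arrays and 8.73, 8.88, 10.54 and 10.84 on the saline arrays (change -1.33, SE 0.39, adjusted p = 0.060 from limma), and was thus also highest on saline replicates 3 and 4. Of 6 listed genes of meninges, 3 were compared and 0 passed the test, Col1a1, Col1a2 and Col3a1 were detected on 0 arrays, and the mean log2 level of the list ran from 5.69 to 5.99 on methanol arrays and from 5.94 to 6.54 on saline arrays. Of 7 choroid plexus genes, 4 were compared and 1 was lower, Kl (-1.17, adjusted p = 0.042 from limma). The list means were 5.77 to 6.09 on methanol arrays and 5.70 to 7.91 on saline arrays. The lowest saline mean was that of saline replicate 4 and the highest that of saline replicate 3. Ttr of this list was at 14.40 on saline replicate 3 and 7.53 on saline replicate 4. The part of meninges and choroid plexus in the Gpx8 result was not tested. Gsta3, which met the detection filter through the methanol arrays alone, had a change of 1.11 without saline replicates 3 and 4 (adjusted p = 0.0082 from limma).

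**Figure D4:**
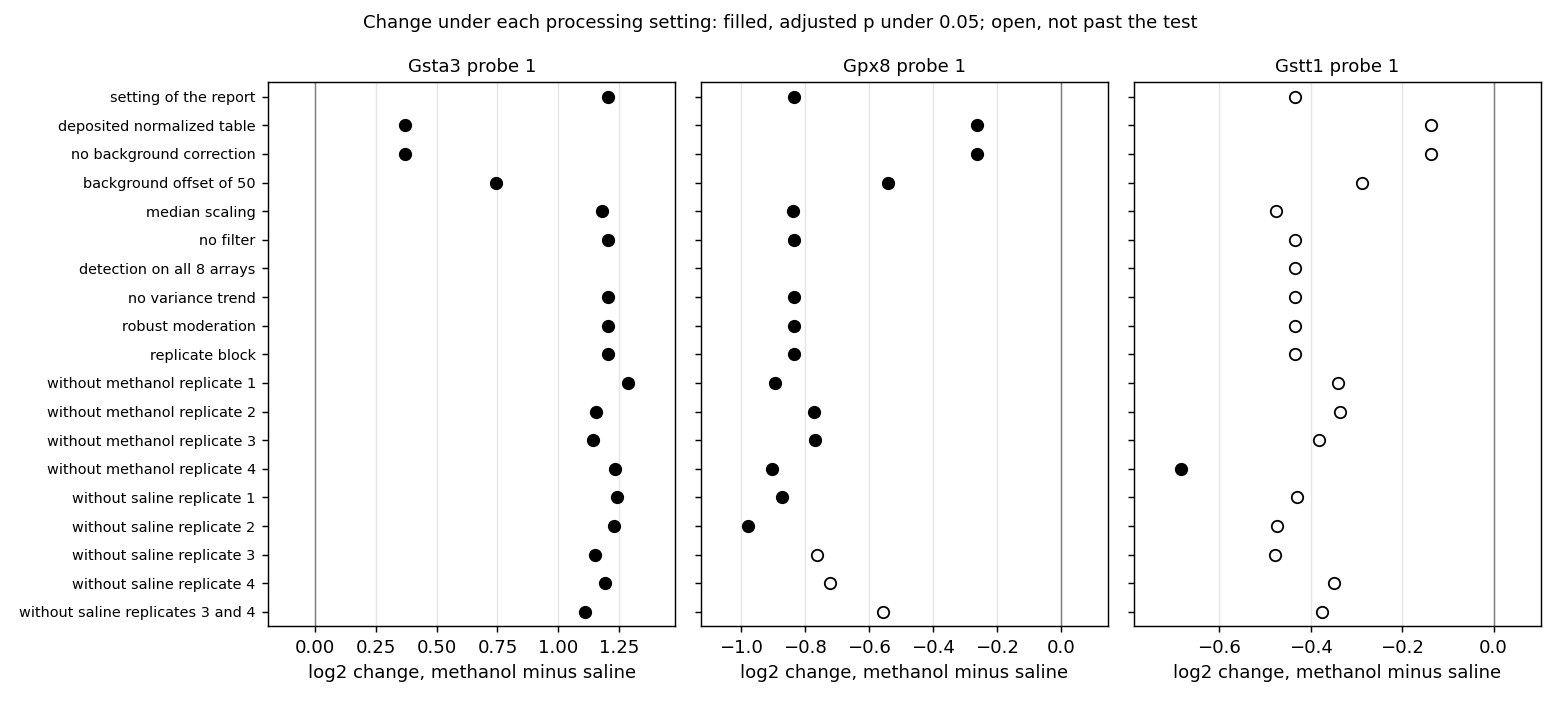
Log2 change (methanol minus saline, horizontal axis) of Gsta3 probe 1, Gpx8 probe 1 and the Gstt1 probe under the reported setting and each alternative that gave a value, filled where the adjusted p was under 0.05. Gsta3 stays filled throughout, from 0.37 to 1.29, while Gpx8 is open without saline replicate 3 or 4 or both, and Gstt1 is filled only without methanol replicate 4.

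The 4 compared selenocysteine peroxidases did not pass the test, with changes from -0.09 to 0.03. Gpx1, the cytosolic peroxidase, had 10.67, 10.83, 10.81 and 10.68 on the methanol arrays and 10.93, 10.70, 10.70 and 10.72 on the saline arrays. Its change was -0.01 (SE 0.078, 95% interval -0.18 to 0.15, adjusted p = 0.948 from limma), so that a change beyond that interval was not seen. Gpx4, which reduces lipid hydroperoxides within membranes, changed by -0.09 (SE 0.077, 95% interval -0.25 to 0.08). Gpx3, the secreted peroxidase of plasma, had 5.57 to 5.83 on the methanol arrays and 5.33, 5.22, 6.46 and 6.10 on the saline arrays, a change of -0.06 (SE 0.24), and was also highest on saline replicates 3 and 4. Gpx7, a peroxidase of the endoplasmic reticulum related to Gpx8, changed by -0.05 (SE 0.13, adjusted p = 0.887 from limma). Gpx5 and Gpx6, of the epididymis and the olfactory epithelium, were detected on 0 arrays.

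Ggt7 was the compared member of the gamma-glutamyl transferase family, whose best known enzyme splits glutathione outside the cell. It had 9.35, 9.25, 9.83 and 9.49 on the methanol arrays and 9.19, 9.29, 8.94 and 8.98 on the saline arrays, with an overlap between methanol replicate 2 and saline replicate 2. The change of 0.38 (SE 0.12, 95% interval 0.12 to 0.64, adjusted p = 0.084 from limma) did not pass. The 4 probes of Ggt5 and Ggt6 were detected on 0 arrays.

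Of the 56 probes, 24 were not compared, 18 of them detected on 0 of 8 arrays and 6 on some. They left 12 genes with no compared probe, namely Ggt5, Ggt6, Gpx5, Gpx6, Gss, Gsta1, Gsta2, Gstm3, Gstp3, Gstt2, Gstt4 and Mgst2. Just outside the limit of 4 arrays were Gstp1 probe 3 (5.60 ± 0.30 in the methanol group and 5.26 ± 0.33 in the saline group, SD, n = 4 each) and Gpx4 probe 1 (5.50 ± 0.30 in the methanol group and 5.48 ± 0.38 in the saline group), each detected on 2 methanol arrays and 1 saline array. Just inside it was Gsta3 probe 1. Of the 32 compared probes, 24 were detected on all 8 arrays. The median deviation of the 32 probes, each from its own saline mean, ran from -0.13 to 0.04 over the methanol arrays. Over the saline arrays it ran from -0.06 to 0.02, near 0 by construction. Methanol replicates 1 to 3, at -0.09, -0.12 and -0.13, were below every saline array, and methanol replicate 4 was above them all.

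Other genes of the pathway were read from 7 lists, chosen with earlier results of these data known. Each gene was read at its brightest compared probe alone. Further compared probes of some genes, among them Srxn1 and Selenop, were not read. Of 66 genes on the array, 46 were compared, 3 were higher, 2 were lower and 41 did not pass, against 3.12% higher and 2.49% lower of all probes. Among 8 compared regulators and targets of NRF2, 2 were higher and 0 lower. Srxn1, the sulfiredoxin that repairs oxidized peroxiredoxins, had 9.40, 9.67, 9.40 and 9.08 on the methanol arrays and 7.88, 7.74, 7.92 and 7.84 on the saline arrays, with no overlap and a change of 1.55 (SE 0.11, adjusted p = 7.1e-07 from limma). Bach1, a repressor that competes with NRF2 for the antioxidant response element, had 6.73, 6.49, 6.47 and 6.09 on the methanol arrays and 5.24, 5.89, 5.71 and 5.36 on the saline arrays. Its change was 0.89 (SE 0.18, adjusted p = 0.0086 from limma), with detection on 4 methanol and 2 saline arrays. Other targets of the list had changes of -0.19 (Nqo1, a quinone reductase, SE 0.16), 0.12 (Txnrd1, a thioredoxin reductase, SE 0.15) and -0.08 (Cat, catalase, SE 0.13), none past the test. Hmox1, the heme oxygenase, was detected on 0 arrays, and Nfe2l2, the gene of NRF2 itself, on too few to compare.

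Supply, recycling and export of glutathione showed no member past the test at the 1 probe read for each gene. This held for 6 compared genes of cysteine, glutamate and glycine supply, 6 of the gamma-glutamyl cycle and export, and 10 of glutaredoxins and NADPH supply. Slc7a11, the cystine importer, had a change of -0.37 (SE 0.13, adjusted p = 0.109 from limma), Chac1, which degrades glutathione inside the cell, 0.30 (SE 0.10, adjusted p = 0.107), and Glrx, a glutaredoxin, 0.27 (SE 0.086, adjusted p = 0.085). In the selenoprotein list, 1 of 4 compared genes was higher. This was Selenop, the selenium carrier of plasma and brain, at 10.67, 10.14, 10.22 and 10.63 on the methanol arrays and 9.93, 9.75, 9.89 and 9.88 on the saline arrays (change 0.55, SE 0.11, adjusted p = 0.011 from limma).

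Of the genes that use glutathione on formaldehyde and glyoxals, 1 of 4 was lower. Glo1, the glyoxalase that acts on the glutathione adduct of methylglyoxal, had 11.14, 11.54, 11.08 and 11.06 on the methanol arrays and 11.73, 11.85, 11.80 and 11.94 on the saline arrays, with no overlap, a change of -0.62 (SE 0.099, adjusted p = 0.0017 from limma). Copies of Glo1 vary in number among laboratory mouse strains. The next enzymes of formaldehyde removal did not pass, namely Adh5 with 7.49, 7.36, 7.58 and 7.67 on the methanol arrays and 7.48, 7.77, 7.63 and 7.81 on the saline arrays, and Esd, which hydrolyses formylglutathione, with a change of -0.17 (SE 0.12, adjusted p = 0.445 from limma). Hagh, the second glyoxalase, changed by -0.12 (SE 0.10). Among 8 compared genes with a transferase fold or a microsomal transferase fold, Gdap1l1 was lower (-0.52, SE 0.13, adjusted p = 0.034 from limma), a call lost under 8 of 18 alternatives.

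The whole array gives the scale of these values. Between 11291 and 12366 probes were detected per methanol array and between 11855 and 12199 per saline array, and log2 intensities correlated at 0.981 to 0.989 within groups and 0.973 to 0.984 between groups. Markers of neurons and astrocytes were present, with 0 of 4 and 0 of 7 compared genes past the test, and 0 of 4 endothelial genes passed. Of 8 compared oligodendrocyte genes, 2 were higher (Cldn11 by 0.62 and Mal by 0.60) and 1 was lower (Opalin, -0.82), and of 5 microglial genes 1 was lower (P2ry12, -0.35). In the red cell list, 4 of 5 compared genes were lower in the methanol brains (Hbb-b2 by -2.01, Alas2 by -1.80, Hba-a1 by -1.79 and Hbb-bt by -1.47). Slc4a1, at -0.49, did not pass the test. Red cells hold glutathione enzymes, among them Gpx1, and the part of these marker differences in the values above was not tested.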

How the data were processed

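Total RNA of whole mouse brain was labelled and hybridised to Illumina MouseRef-8 arrays, 4 for each group, with the group of each array read from its label. The methods state that the authors used GenomeStudio with cubic spline normalization. Of the deposited tables, the one called non-normalized had identical sorted intensity values in all 8 columns, that is, normalized ones, with a deposited detection p-value per probe and array. The other held un-normalized intensity and was the starting point. Background was corrected from the detection p-values by normexp (offset 16) and arrays were quantile normalized (neqc, limma 3.58.1 in R 4.3.3). Background correction widens the log2 changes of dim probes. Probes with a detection p under 0.05 on at least 4 of 8 arrays were compared with limma's moderated test with a variance trend, two-sided, and called at a Benjamini-Hochberg adjusted p under 0.05 over all 11938 probes. The procedure was tested on simulated data. Members were named from the platform annotation, all 56 probes matched a RefSeq gene, and 1719 of 25697 probes carried no single gene name. A pathway gene was read from its probe with the highest mean.

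Named with values were probes past the test, probes whose groups did not overlap, the synthesis genes, the 5 brightest other genes and further probes of these. Gsta4, Gstm2, Gstp2, Gstt1, Gstz1, Gstk1, Mgst1, Gpx3, Gpx4, Gpx7 and Ggt7, the pathway genes that did not pass, and the sex check were chosen after their values were seen. The members and lists were chosen with earlier results of these data known. The p-values measure the spread between these arrays, which may be technical, and their precision is limited by how many arrays there are. Probe sequences were not used, so that binding to related genes was not checked. Replicate numbers were not taken as pairs of arrays. The alternatives were the deposited normalized table, no background correction, an offset of 50, median scaling, no filter, detection on all 8 arrays, no variance trend, robust moderation, a replicate block, a fold limit of 1.3 and leaving out single arrays or saline replicates 3 and 4.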

Additional observations from a re-analysis of the deposited data

Results flagged for a closer look

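Of 64 groups of 4 arrays (32 probes in each of 2 treatments), 6 held an array far from the other 3 by Dixon's ratio, the gap to the nearest array over the group's range, above the critical value at the 95% level. Chance gives about 1 in 20 such groups. In the methanol group this was Gstt1 on replicate 4 (6.75 against 5.74 to 5.87 on the others, ratio 0.873). In the saline group, replicate 1 stood apart for Gpx1 (10.93 against 10.70 to 10.72, ratio 0.925), for Gstk1 (8.21 against at most 8.03, ratio 0.853) and for Gsta4 (8.60 against 8.72 to 8.73, ratio 0.966). Saline replicate 3 stood apart for Gstp1 probe 1 (8.64 against 9.04 to 9.09, ratio 0.87) and for Mgst1 probe 2 (6.48 against at most 6.05, ratio 0.892). Without methanol replicate 4, Gstt1 was past the test, and the saline arrays that stood apart changed no call of these probes.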

How the results depend on the processing

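Over 18 alternatives, the 32 glutathione probes gave 568 log2 changes, of which 564 kept their side of the threshold, 3 lost a call, 1 gained one and 0 called changes turned sign. The calls of 30 of 32 probes held under all alternatives that gave a value. Gsta3 was past the test in 17 of 17 settings that compared it (0.37 to 1.29, adjusted p 3.56e-05 to 0.0082 from limma). These refits use the same arrays, and the probe met the detection filter through the methanol arrays alone. They show how the value depends on processing and add no support for the change. With detection required on all 8 arrays, 0 glutathione probes were higher and 0 lower, since neither Gsta3 nor Gpx8 probe 1 was then compared. Leaving out each array in turn gave 1 higher and 0 to 2 lower, with 2 lower without methanol replicate 4 (Gpx8 and Gstt1) and 0 without saline replicate 3 or 4, and without both it was 0 lower. Counts over all probes were 161 higher and 168 lower with median scaling, and 132 higher and 79 lower without saline replicates 3 and 4. Leaving out single arrays gave 204 to 466 higher (204 without saline replicate 4, 216 without saline replicate 3, 225 without methanol replicate 1 and 245 without saline replicate 2) and 152 to 434 lower (152, 160, 193 and 193 without saline replicate 3, saline replicate 4, methanol replicate 1 and saline replicate 2). With the replicate number as a block, 477 probes were higher and 483 lower, and the glutathione probes were still 1 higher and 1 lower. Same-numbered arrays deviated together with correlations of -0.11 to 0.25. For methanol replicates 1 and 4 the same-numbered saline array correlated best, and for replicates 2 and 3 another one did. The numbers were not taken as pairs, and whether they mark pairs is not settled. Of the pathway genes, Srxn1 and Glo1 kept their calls throughout, Bach1 lost its call without saline replicates 3 and 4 (0.88, adjusted p = 0.068), and Selenop there (0.58, adjusted p = 0.066) and with median scaling (0.57, adjusted p = 0.054). Signals near the detection limit, at a mean of 5.46 on methanol and 5.42 on saline arrays, limit the size of the change of Gpx8 probe 1 (-0.98 to -0.26 over 17 settings) and what can be said of Gclc, Gstm4, Gstp2, Gsto2, Mgst1 and Gpx3.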
